A study of Homo sapiens with 6 samples.

Results

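The genes described here are the laminins and the non-collagen glycoproteins and proteoglycans of the extracellular matrix, a list of 45 symbols. All 45 were found by their identifier among the 23284 genes of the deposited table. RNA was sequenced from 6 libraries of the human embryonic stem cell line WA01, an established line with a wildtype genotype, in 3 groups of 2. Day 0 is the embryonic stem cell stage (ES), day 3 the pre-neural crest stage (preNC) and day 5 the neural crest stage (NC). For every group alike, the day 0 cells included, the labels' protocol describes plating at 20000 cells per cm2 on Matrigel with 3 µM CHIR99021, which activates WNT signalling through inhibition of GSK3, and early exposure to 10 µM of the ROCK inhibitor Y-27632. Matrigel is itself a basement membrane extract, and the RNA values below say nothing of the protein it brings.

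The basement membrane is a thin sheet of matrix under epithelia. Laminins, trimers of an alpha, a beta and a gamma chain, polymerise into it, nidogens link them to collagen IV, and the heparan sulphate proteoglycans perlecan and agrin fill it. Neural crest cells leave the neural tube by crossing this sheet and then move through an interstitial matrix that holds fibronectin, tenascins, fibrillin microfibrils and hyaluronan with its binding proteoglycans. Matricellular proteins such as the SPARC, SMOC and thrombospondin families sit in the same matrix and modulate adhesion and growth factors rather than bear load.

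Each gene has 1 FPKM value per group (fragments scaled by the length of the transcript and the size of the library), with both libraries combined. No value per library was used, so there is no spread between replicates to give, and the depth per library is unknown. Ratios have the later day on top. Each ± is a standard error, obtained as the log2 ratio divided by the statistic in the authors' deposited table. Calls of higher or lower use a threshold of 0.05 on the q given there. The smallest q in the table is 0.000596, and 19 of the 45 genes reach it in at least 1 comparison. RNA was measured in bulk, where fewer cells of a type and less RNA per cell cannot be told apart. Most stage markers went with the labels. All 6 tested ES markers were called lower by day 3. Between day 3 and day 5, 7 of 9 tested neural crest markers were called higher and none was called lower. PAX3 reached 39.9 FPKM on day 5. SOX10 (3.87 FPKM on day 3 and 6.33 on day 5) and NGFR (18.5 and 11.7) were not called in that step. FOXD3 and ETS1 fell before that, by day 3, and neither was called on day 5 against day 0. Over the whole course 6 of the 9 were called higher.

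The upstream sequences of 4 genes are shown because they belong to relatives whose RNA moved in opposite directions, the calcium-binding matricellular genes SMOC1 (up by day 3) and SMOC2 (down), and the laminin chains LAMB1 (up) and LAMA5 (down). Each is the 250 bases before the start of the gene in RefSeq on GRCh38.p14, written 5′ to 3′ on the gene's strand. They lie at chr14:69879166-69879415, plus strand, at chr6:168440934-168441183, plus strand, at chr7:108003162-108003411, minus strand and at chr20:62367313-62367562, minus strand. Capitals mark matches on either strand to the TATA box (TATAAA), the CCAAT box (CCAAT) or the GC box (GGGCGG), overlapping matches merged.
SMOC1: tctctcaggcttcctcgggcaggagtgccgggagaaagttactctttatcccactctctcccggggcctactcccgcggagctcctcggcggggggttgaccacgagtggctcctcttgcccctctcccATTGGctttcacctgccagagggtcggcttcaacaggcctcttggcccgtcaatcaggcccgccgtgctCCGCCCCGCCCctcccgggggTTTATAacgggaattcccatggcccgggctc
SMOC2: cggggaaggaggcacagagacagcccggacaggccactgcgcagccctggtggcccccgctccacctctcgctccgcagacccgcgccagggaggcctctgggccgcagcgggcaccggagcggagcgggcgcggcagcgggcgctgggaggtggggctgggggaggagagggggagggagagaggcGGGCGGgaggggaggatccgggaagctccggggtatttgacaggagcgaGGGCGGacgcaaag
LAMB1: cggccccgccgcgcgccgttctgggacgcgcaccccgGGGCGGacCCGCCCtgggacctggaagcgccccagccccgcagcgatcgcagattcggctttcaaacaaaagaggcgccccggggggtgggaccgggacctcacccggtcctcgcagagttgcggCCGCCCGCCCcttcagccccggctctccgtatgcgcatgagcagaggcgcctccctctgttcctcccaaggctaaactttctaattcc
LAMA5: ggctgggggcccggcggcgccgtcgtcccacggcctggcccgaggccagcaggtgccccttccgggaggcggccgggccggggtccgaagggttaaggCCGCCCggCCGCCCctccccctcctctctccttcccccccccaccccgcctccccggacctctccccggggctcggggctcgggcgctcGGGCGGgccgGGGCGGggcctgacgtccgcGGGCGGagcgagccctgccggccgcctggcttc
SMOC1 held a TATA box match on the strand opposite to the gene, printed as TTTATA. Its first printed base lay 31 bases before the start. SMOC1 also held a CCAAT match, again on the opposite strand, and 2 GC box matches. SMOC2 held 2 GC box matches and neither of the other motifs. LAMB1 held 4 GC box matches and LAMA5 held 5. None of these 4 windows held the TCF/LEF motif of WNT target genes (CTTTGAN, either strand). RefSeq promoters were matched for 35 of the 45 genes, 46 entries in all. The GC box was in 65.2% of those entries, against 42.6% of all 35116 promoters, and the TCF/LEF motif in 10.9%, against 11.1%. The CCAAT box was in 26.1%, against 32.0%, and the TATA box in 8.70%, against 10.7%. LAMA1, LAMC3, AGRN, TNR, NCAN, DCN, LUM, SPOCK1, EMILIN1 and MATN2 had no entry. A match is a stretch of letters, and binding was not measured.

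Of the 45 matrix genes, 28 were called in at least 1 of the 3 comparisons, 12 were tested in all 3 without a call, and 5 were tested in none. Between day 0 and day 3, 12 rose and 10 fell of 40 tested, or 55.0%, where 20.6% of all 16231 tested genes were called (8.96% higher and 11.6% lower). Between day 3 and day 5, 8 rose and 6 fell of 36 tested, or 38.9%, against 12.6% of all tested genes (5.93% higher and 6.68% lower). Over the whole course, 13 rose and 10 fell of 40 tested, or 57.5%, against 27.0% (12.2% higher and 14.7% lower). The comparisons share groups, so their counts are not separate evidence. The shares are descriptive, since the list was drawn up with results known, and nothing particular to these genes is read from them.

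Among genes that reach an FPKM of 1 on either day, with p adjusted again over them, 19 of 33 were called between day 0 and day 3, 12 of 30 between day 3 and day 5 and 19 of 34 over the whole course. The backgrounds under that filter were 20.8%, 12.6% and 27.7%. Calls were also made at a q threshold of 0.01 and under the normal p, that is, the p a standard normal distribution gives for the deposited statistic. These are the 2 alternatives named below where a call is lost. Under the normal p, 15 were called between day 0 and day 3 (background 14.6%), of which 7 were higher (background 5.68%), 11 between day 3 and day 5 (background 7.84%) and 19 over the whole course (background 19.1%). The median log2 ratio of FPKM plus 1 over the tested matrix genes was 0.03 between day 0 and day 3, against 0.03 for all tested genes. It was 0.23 between day 3 and day 5, against -0.04 for all tested genes, and 0.17 over the whole course, against -0.01. The first and last of these medians depend on the low genes. Over genes with a mean FPKM of at least 1, the median was 0.23 between day 0 and day 3, against 0.05 for all tested genes so filtered, and 0.50 over the whole course, against -0.01.

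Levels covered a wide range. Summed over the 45 genes, FPKM was 495 on day 0, 614 on day 3 and 566 on day 5. The highest were FBLN1, SPARC, VCAN and AGRN on day 0, FBLN1, SPARC, AGRN and VCAN on day 3, and SPARC, FBLN1, LAMB1 and AGRN on day 5. An FPKM of 10 or more was reached by 11 genes on day 0, by 16 on day 3 and by 15 on day 5. At the other end 11 genes stayed below 1 on every day, namely ACAN, DCN, FBLN5, LAMA2, LAMA3, LAMA4, LAMB3, LUM, SPARCL1, TNR and TNXB. The highest value fell on day 0 for 15 genes, on day 3 for 10 and on day 5 for 20.

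**Figure D1:**
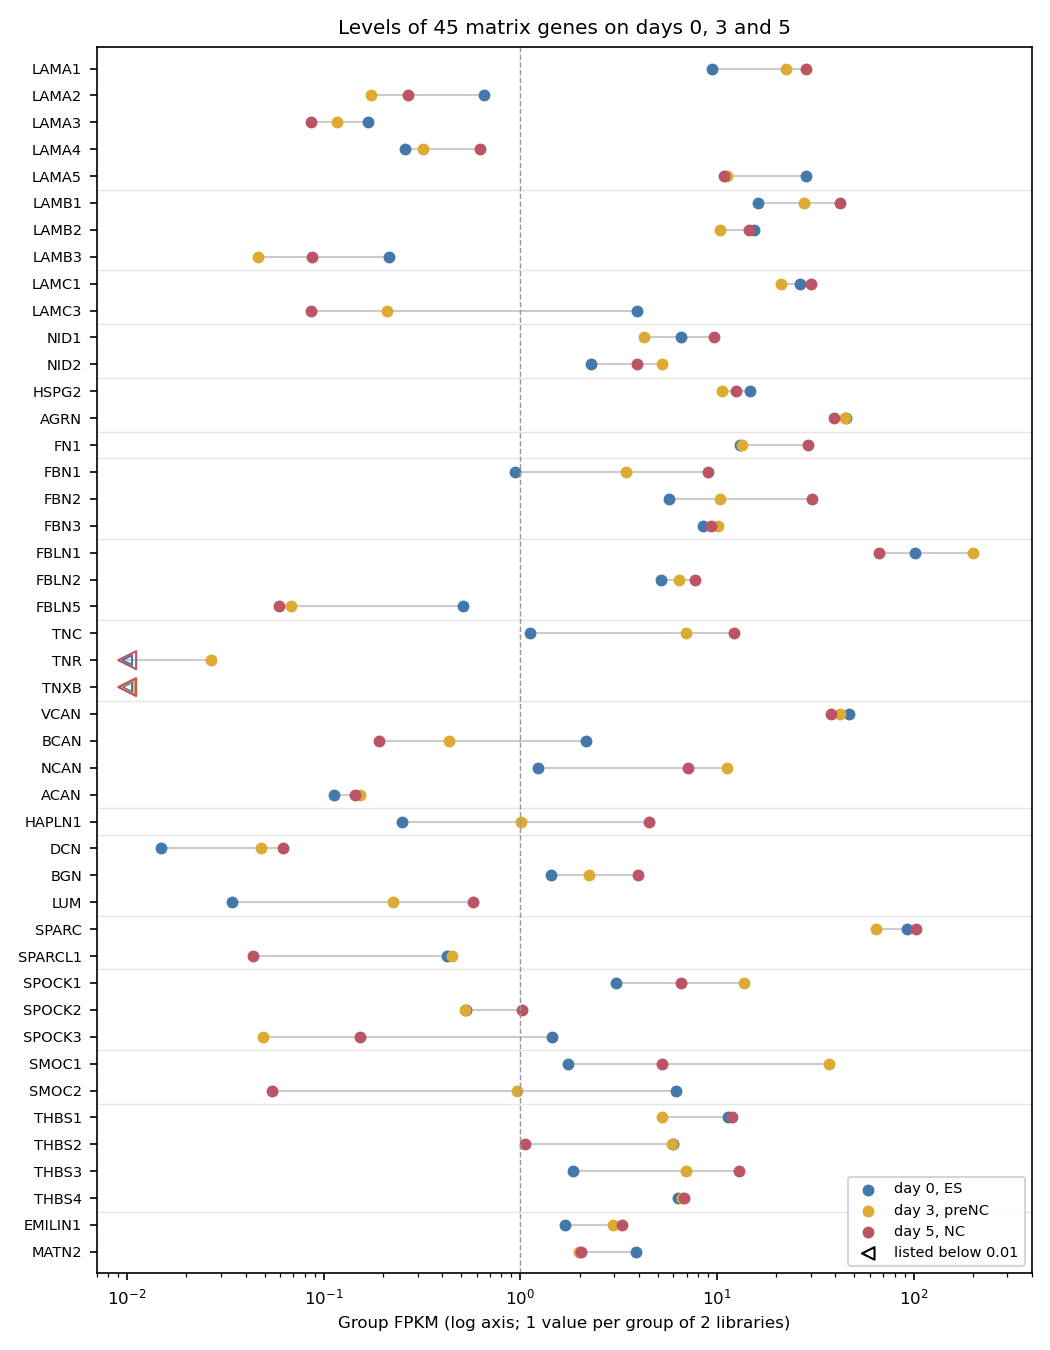
Group FPKM (log axis) of the 45 matrix genes on day 0, day 3 and day 5, 1 point per group of 2 libraries, with pale lines between families and open triangles for values listed below 0.01. FBLN1 reaches 201 on day 3 and SPARC 103 on day 5, while 11 genes lie left of the dashed line at 1 on every day.

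Laminin alpha chains exchanged their leading member. LAMA1, the alpha chain of the earliest embryonic basement membranes (chromosome 18, 6941743 to 7117813 in hg19, the build of all gene positions here), had FPKM values of 9.42, 22.4 and 28.3 on days 0, 3 and 5. Its rise by day 3 was 2.38-fold (log2 1.25 ± 0.37, q 0.000596 in the authors' deposited table). LAMA1 was 3.00-fold higher on day 5 than on day 0, and the step between day 3 and day 5 was not called (log2 0.34 ± 0.38). LAMA5 (chromosome 20, 60884121 to 60942368), whose laminins human pluripotent cells make and attach to, was at 28.4, 11.2 and 10.9 on the same days. It was 2.53-fold lower on day 3 than on day 0 (log2 -1.34 ± 0.40, q 0.000596), with no detectable change afterwards (day 5 over day 3 log2 -0.04 ± 0.31). LAMA5 was thus the higher of the pair on day 0 and LAMA1 on days 3 and 5. On the FPKM scale LAMA1 made up 24.2% of the summed alpha chains on day 0, 65.5% on day 3 and 70.5% on day 5, and LAMA5 73.0%, 32.8% and 27.1%. The sum itself moved less, at 38.9, 34.2 and 40.2. The LAMA5 locus overlaps that of MIR4758, and the strand setting of the counting is not given in the sources used here.

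The remaining alpha chains were low. LAMA2, the chain of muscle and Schwann cell basement membranes, was at 0.656, 0.174 and 0.269 on days 0, 3 and 5, called lower on day 3 (log2 -1.92 ± 0.62) and on day 5 (log2 -1.28 ± 0.58) against day 0. The day 5 call is lost at a q threshold of 0.01 and under the normal p. LAMA3, of epithelial laminin, was at 0.167, 0.116 and 0.0857 and was not tested. LAMA4, a vascular chain, was at 0.259, 0.319 and 0.624, with implied standard errors above 2 on the log2 scale, so that its 95% interval over the whole course ran between -2.77 and 5.31.

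Among beta chains LAMB1, the usual partner of LAMA1 (chromosome 7, 107564246 to 107643804), was at 16.2, 27.6 and 42.0 on days 0, 3 and 5, and rose by day 3 (log2 0.77 ± 0.36, q 0.0261 in the authors' deposited table). It stood 2.59-fold higher on day 5 than on day 0 (log2 1.37 ± 0.37, q 0.000596). The call by day 3 is lost at a q threshold of 0.01 and under the normal p. LAMB2 was at 15.4, 10.3 and 14.5 with no call. The pair were close on day 0, and LAMB1 was 2.68 times LAMB2 on day 3 and 2.89 times on day 5. LAMB3, the other epithelial chain, stayed at 0.215 or below, and was called lower on day 3 than on day 0 (log2 -2.20 ± 0.96, q 0.0259), a call also lost in both alternatives.

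The common gamma chain LAMC1 was high throughout and not called, at 26.3, 21.1 and 30.1 on days 0, 3 and 5. Its day 5 over day 0 ratio was log2 0.19 with an implied 95% interval between -0.57 and 0.96. LAMC3, an alternative gamma chain (chromosome 9, 133884504 to 133968446), had 3.90 on day 0, 0.211 on day 3 and 0.0866 on day 5. LAMC3 was 18.5-fold lower on day 3 (log2 -4.21 ± 0.46) and 45.1-fold lower on day 5 (log2 -5.49 ± 0.56) than on day 0, both at the smallest q. The size of both folds rests on day 3 and day 5 values below an FPKM of 1. The LAMC3 share of gamma chain FPKM was 12.9% on day 0, 0.990% on day 3 and 0.287% on day 5. The summed beta chains stood at 31.8, 37.9 and 56.6 and the summed gamma chains at 30.2, 21.3 and 30.1 on days 0, 3 and 5.

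Each nidogen was called in 1 comparison, and the proteoglycans of the sheet in none. NID1 was at 6.53 on day 0, 4.25 on day 3 and 9.71 on day 5 and rose between day 3 and day 5 (log2 1.19 ± 0.41, q 0.00157 in the authors' deposited table). NID2 was at 2.30, 5.27 and 3.94 and rose between day 0 and day 3 (log2 1.20 ± 0.45, q 0.00401), a call lost under the normal p. Neither nidogen was called between day 0 and day 5, and NID2 exceeded NID1 on day 3 alone. AGRN, best known for clustering acetylcholine receptors at the nerve-muscle synapse, was at 45.3, 44.9 and 39.4, and HSPG2, which encodes perlecan, at 14.8, 10.6 and 12.5, with no call in any comparison. The implied 95% interval of AGRN over the whole course ran between -0.78 and 0.38 on the log2 scale and that of HSPG2 between -1.07 and 0.60. HSPG2 shares its locus with LDLRAD2.

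**Figure D2:**
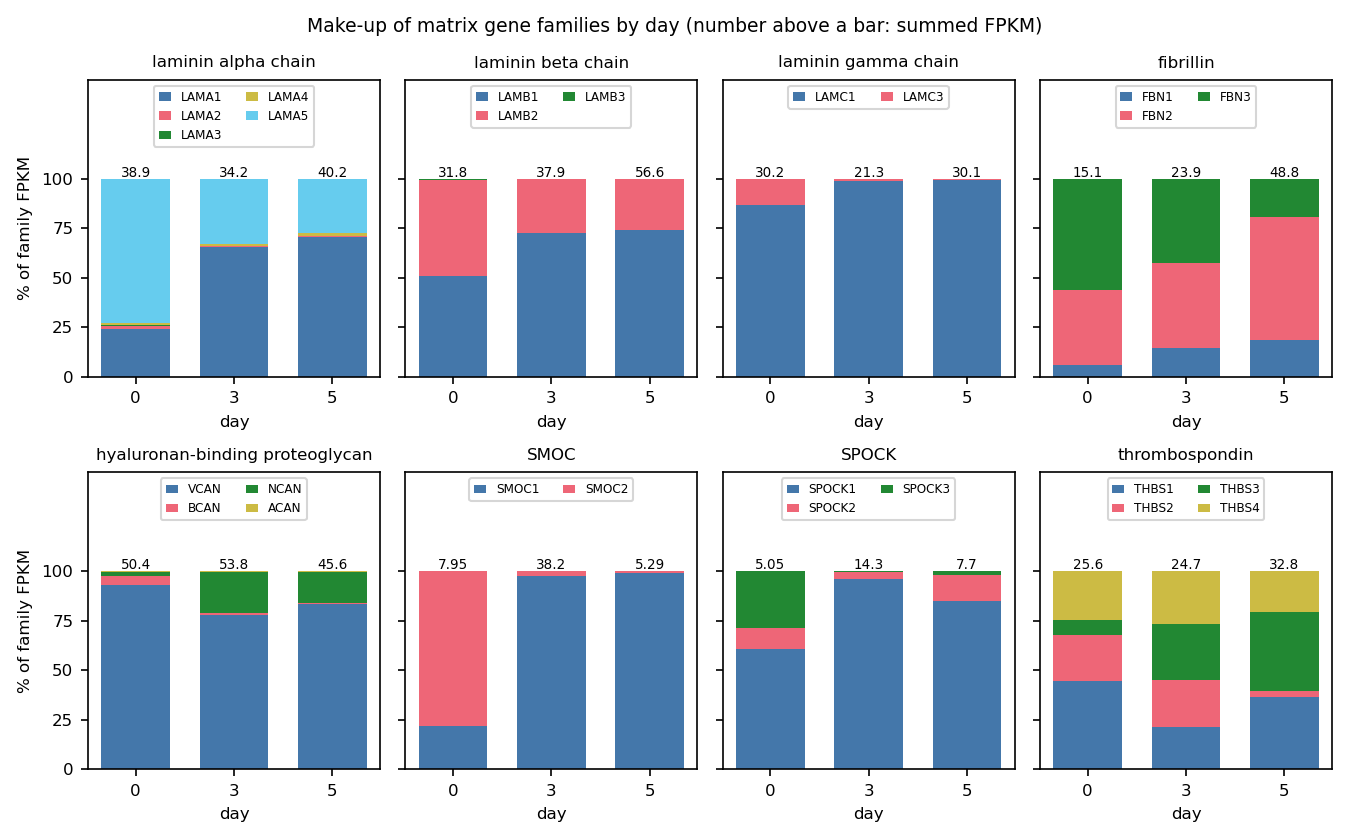
Share of each member in the summed FPKM of 8 families (percent, vertical axis) on days 0, 3 and 5, with the summed FPKM above each bar. LAMA1 fills 70.5% of the alpha chain bar on day 5, against 24.2% on day 0, and SMOC1 99.0% of the SMOC bar on day 5, against 21.8% on day 0.

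Fibronectin and 2 of the 3 fibrillins were called higher on day 5 than on day 0. FN1, whose protein is a classic substrate of migrating neural crest (chromosome 2, 216225179 to 216300791), was at 13.0, 13.4 and 29.1 on days 0, 3 and 5. Its day 5 level was 2.18-fold higher than that of day 3 (log2 1.13 ± 0.40, q 0.000596 in the authors' deposited table) after no detectable change before that. FBN2, a fibrillin of developing tissues (chromosome 5, 127593601 to 127873735), was at 5.73, 10.3 and 30.4 on the same days, called higher in each step, and 5.31-fold higher on day 5 than on day 0 (log2 2.41 ± 0.41). FBN1, the fibrillin mutated in Marfan syndrome (chromosome 15, 48700503 to 48937985), was at 0.939, 3.46 and 9.02, also called higher in each step, and 9.61-fold higher on day 5 than on day 0 (log2 3.26 ± 0.45). FBN3 was at 8.48, 10.1 and 9.33 with no call, and it held 56.0%, 42.4% and 19.1% of the family's FPKM, where FBN2 held 37.8%, 43.1% and 62.4%. The first step of FBN2 (q 0.0138) is lost at a q threshold of 0.01 and under the normal p.

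FBLN1 had the highest FPKM of all 45 genes on days 0 and 3. FBLN1, a fibulin that binds fibronectin and basement membrane proteins (chromosome 22, 45898719 to 45997014), was at 102, 201 and 67.0 on days 0, 3 and 5. The rise by day 3 was 1.98-fold (log2 0.98 ± 0.39, q 0.00242 in the authors' deposited table), and day 5 was 3.00-fold lower than day 3 (log2 -1.59 ± 0.32, q 0.000596). Day 5 against day 0 was not called (log2 -0.60 ± 0.40, q 0.0990), and under the normal p the rise by day 3 was not called. FBLN2 was at 5.17, 6.40 and 7.70 with no call. FBLN5, needed for elastic fibre assembly, was at 0.513, 0.0685 and 0.0595 and was called lower on days 3 and 5 than on day 0.

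TNC rose in each step. This tenascin lines the migration paths of neural crest in several vertebrates (chromosome 9, 117781854 to 117880536) and was at 1.12, 6.98 and 12.3 on days 0, 3 and 5. The rise by day 3 was 6.22-fold (log2 2.64 ± 0.46, q 0.000596 in the authors' deposited table), and day 5 was 10.9-fold higher than day 0 (log2 3.45 ± 0.44). The step between day 3 and day 5 (log2 0.81 ± 0.40, q 0.0307) is lost at a q threshold of 0.01 and under the normal p. TNR, a tenascin of the central nervous system, was listed at 0 on day 0, 0.0268 on day 3 and 0.00972 on day 5. TNXB lies on a haplotype contig of hg19 where it shares its locus with 6 other genes, and its listed values of 1.02e-05 and below are not read as its expression.

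The hyaluronan-binding proteoglycans showed 1 high gene without a call and 2 that moved apart. VCAN, which encodes versican, was at 46.9 on day 0, 42.0 on day 3 and 38.1 on day 5 (day 5 over day 0 log2 -0.30 ± 0.40, q 0.554 in the authors' deposited table). NCAN, a proteoglycan of the developing brain (chromosome 19, 19322782 to 19363061), was at 1.23, 11.2 and 7.16, 9.08-fold higher on day 3 than on day 0 (log2 3.18 ± 0.43) and 5.81-fold higher on day 5 than on day 0, both at the smallest q. BCAN, also of the brain, went the other way, at 2.16, 0.431 and 0.190, and was 11.4-fold lower on day 5 than on day 0 (log2 -3.51 ± 0.71). ACAN, of cartilage, was at 0.153 or below and not tested. HAPLN1, the link protein that locks such proteoglycans onto hyaluronan, was at 0.249, 1.01 and 4.52 and was called higher in each step, 18.2-fold over the whole course (log2 4.18 ± 0.67). Its call by day 3 is lost under the normal p.

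The collagen-binding small leucine-rich proteoglycans were low. BGN was at 1.44 on day 0, 2.24 on day 3 and 3.95 on day 5 and was called higher on day 5 than on day 0 alone (log2 1.46 ± 0.47, q 0.00613 in the authors' deposited table). LUM was at 0.0342, 0.226 and 0.573, with a call over the whole course (log2 4.07 ± 1.52, q 0.0194) that rests on values below an FPKM of 1 and is lost in both alternatives. DCN was at 0.0623 or below on every day and not tested.

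The 2 SMOC genes moved apart. SMOC1, an antagonist of BMP signalling in frog embryos (chromosome 14, 70346114 to 70499083), was at 1.74, 37.2 and 5.23 on days 0, 3 and 5. SMOC1 rose 21.4-fold by day 3 (log2 4.42 ± 0.47), was 7.11-fold lower on day 5 than on day 3 (log2 -2.83 ± 0.42) and remained 3.01-fold higher on day 5 than on day 0, each at a q of 0.000596 by the authors' deposited table. SMOC2 (chromosome 6, 168841831 to 169068674) fell in each step, at 6.21, 0.956 and 0.0545, and was 114-fold lower on day 5 than on day 0 (log2 -6.83 ± 0.88). Its call between day 3 and day 5 rests on values below an FPKM of 1 and drops out when such genes are left out. SMOC2 was the higher of the pair on day 0, and SMOC1 was 38.9 times SMOC2 on day 3 and 96.1 times on day 5. The day 5 ratio and the 114-fold fall both rest on the SMOC2 value of 0.0545, and SMOC1 itself was lower on day 5 than on day 3. Their upstream sequences are those printed above.

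SPARC was among the highest genes and was not called, at 92.1 on day 0, 64.2 on day 3 and 103 on day 5. The step between day 3 and day 5 missed the threshold (log2 0.68 ± 0.39, q 0.0598 in the authors' deposited table). Its relative SPARCL1 was at 0.423, 0.450 and 0.0435 and was 10.3-fold lower on day 5 than on day 3 (log2 -3.37 ± 1.13). SPOCK1, a testican proteoglycan (chromosome 5, 136310987 to 136835018), was at 3.07, 13.7 and 6.53. It rose 4.47-fold by day 3 (log2 2.16 ± 0.48) and was lower on day 5 than on day 3 (log2 -1.07 ± 0.45, q 0.0112), a step lost in both alternatives. Day 5 stayed above day 0 (log2 1.09 ± 0.46, q 0.00438), a call lost under the normal p. SPOCK3 was at 1.45, 0.0493 and 0.153 and was called lower on days 3 and 5 than on day 0, and SPOCK2 was at 0.530, 0.525 and 1.02 with no call.

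The 4 thrombospondins each followed a course of their own. THBS1, an activator of latent TGF-beta (chromosome 15, 39873280 to 39889668), dipped on day 3, at 11.3 on day 0, 5.23 on day 3 and 11.9 on day 5, with both the fall (log2 -1.12 ± 0.41, q 0.00242 in the authors' deposited table) and the rise (log2 1.19 ± 0.41, q 0.000596) called. THBS2 was at 1.06 on day 5, against 5.88 on day 3, a 5.56-fold fall (log2 -2.48 ± 0.46, q 0.000596), after no call by day 3 (log2 -0.03 ± 0.38). THBS3 was at 1.85, 6.96 and 13.0, called higher in each step, and 7.02-fold higher on day 5 than on day 0 (log2 2.81 ± 0.52). Its second step (q 0.0149) is lost in both alternatives. THBS4 was at 6.37, 6.65 and 6.83 with no call. THBS3 accordingly held 7.24% of the family's FPKM on day 0, 28.1% on day 3 and 39.6% on day 5, and THBS2 23.5%, 23.8% and 3.23%. Of the other matrix proteins, MATN2 was at 3.86, 1.99 and 2.02 and was called lower on days 3 and 5 than on day 0 (q 0.0312 and 0.0376, both lost in both alternatives), and EMILIN1 was at 1.68, 2.96 and 3.29 (day 5 over day 0 log2 0.97 ± 0.39, q 0.0533).

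**Figure D3:**
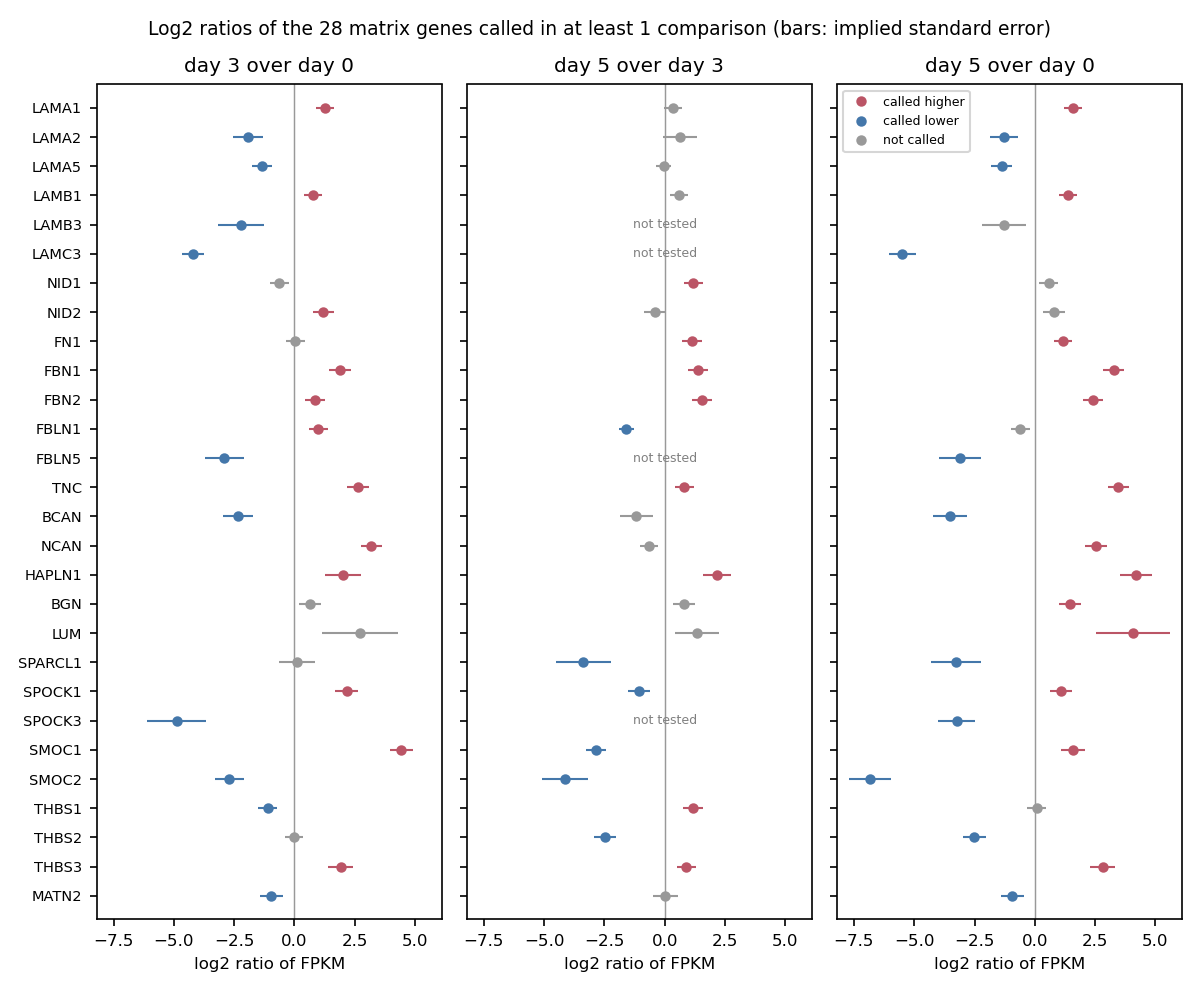
Log2 ratio of group FPKM (horizontal axis, later day over earlier day, bars the implied standard error) for the 28 matrix genes called in at least 1 comparison, coloured by call. SMOC1 sits at 4.42 in the left panel and at -2.83 in the middle one, and SMOC2 lies left of 0 in all 3 panels.

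Set out by course, 5 genes were called higher in all 3 comparisons (FBN1, FBN2, TNC, HAPLN1 and THBS3), and 1, SMOC2, was called lower in all 3, with both values of the step between day 3 and day 5 below an FPKM of 1. A rise by day 3 followed by a called fall was seen in SMOC1, SPOCK1 and FBLN1, and the opposite course in THBS1. LAMA1, LAMB1 and NCAN were called higher by day 3 and over the whole course with no call between day 3 and day 5. LAMA2, LAMA5, BCAN and MATN2 were called lower in those comparisons with no call between day 3 and day 5, and LAMC3, FBLN5 and SPOCK3 were called lower in them and not tested between day 3 and day 5. FN1 rose, and THBS2 and SPARCL1 fell, between day 3 and day 5 and over the whole course with no call by day 3.

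Genes whose products bind or anchor these proteins were counted next. Of 7 tested basement membrane collagen chains, 3 rose and 1 fell by day 3, and 2 rose between day 3 and day 5. These calls were 57.1% and 28.6% of the tested chains, against 20.6% and 12.6% of all tested genes. COL4A5 was at 7.33, 13.9 and 29.3 on days 0, 3 and 5, and COL4A6, its neighbour in the same collagen IV network, at 4.88, 12.9 and 29.8, both called higher in each step. COL18A1, the source of endostatin, was at 115, 53.4 and 50.7 and was called lower on days 3 and 5 than on day 0. Its locus overlaps an antisense gene.

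Of 21 tested receptors of laminin and fibronectin, 6 rose and 7 fell by day 3, and of 22 tested between day 3 and day 5, 4 rose and 5 fell. These calls were 61.9% and 40.9% of the tested receptors, against 20.6% and 12.6% of all tested genes. ITGA5, the alpha subunit of the main fibronectin receptor, was at 4.92 on day 0, 16.0 on day 3 and 27.3 on day 5, called higher in each step. ITGA3, which pairs with integrin beta 1 to bind laminins, was at 8.12, 0.985 and 0.902 and was called lower on days 3 and 5 than on day 0. LRP4, an agrin receptor, was at 2.30, 14.7 and 7.77 and SDC3, a syndecan, at 8.36, 37.6 and 19.8, both called higher by day 3 and lower between day 3 and day 5. The LRP4 locus overlaps that of another gene.

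Of the matrix glycoproteins not among the 45, 7 rose and 12 fell of 45 tested by day 3, and 18 rose and 2 fell of 43 tested between day 3 and day 5. Over the whole course 15 rose and 9 fell of 46 tested. In that order the called shares were 42.2%, 46.5% and 52.2%, against 20.6%, 12.6% and 27.0% of all tested genes. MMRN1, a multimerin, was at 0.0469 on day 0, 0.940 on day 3 and 16.7 on day 5, SPON1, a spondin of the floor plate, at 0.684, 4.22 and 22.7, and FBLN7, a fibulin, at 0.246, 5.31 and 11.3, all 3 called higher in each step. HAPLN3, a link protein, was at 46.1, 2.58 and 4.57 and was called lower on days 3 and 5 than on day 0.

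**Figure D4:**
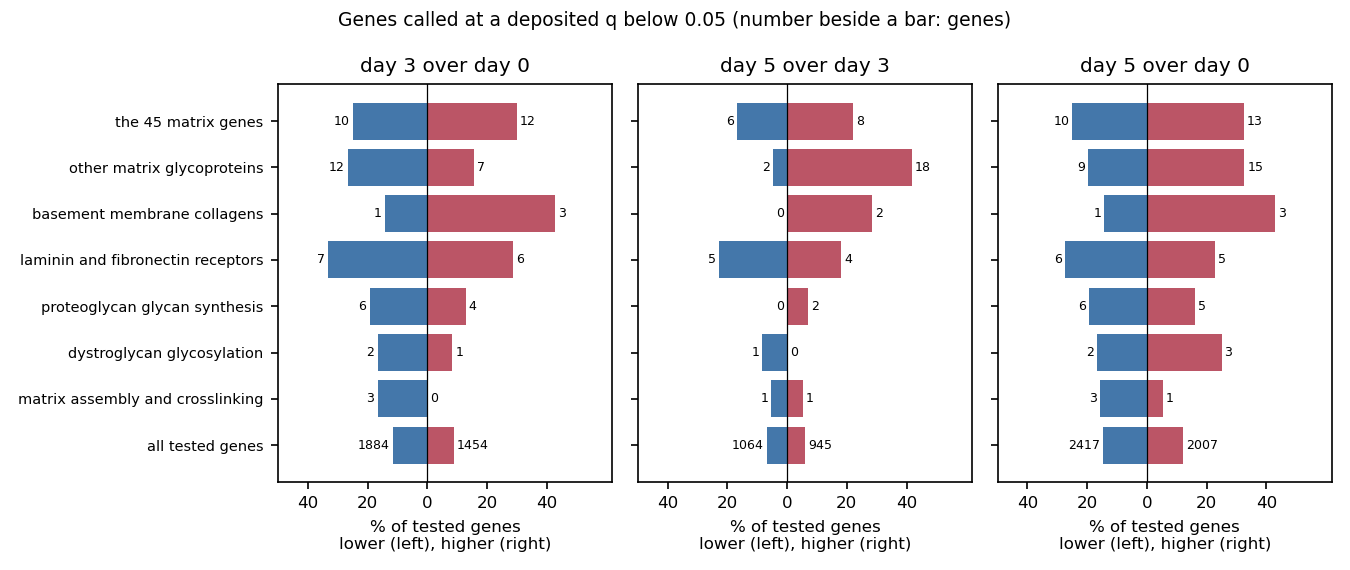
Percent of tested genes called higher (right of 0) or lower (left of 0) at a deposited q below 0.05, for the 45 matrix genes, 6 related lists and all tested genes, with the number of genes beside each bar. Between day 3 and day 5 the other matrix glycoproteins count 18 higher and 2 lower, and the 45 matrix genes 8 higher and 6 lower. Of all tested genes, 5.93% are higher and 6.68% lower in that step.

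Markers of other cell types that make much matrix were read beside these results. The 7 mesenchyme and fibroblast markers had summed FPKM values of 61.1, 29.2 and 77.4 on days 0, 3 and 5. Of 7 tested, 4 rose between day 3 and day 5 (PDGFRB, COL1A1, COL1A2 and COL3A1). That is 57.1% of the tested markers, against 12.6% of all tested genes (5.93% higher). FN1, FBN1 and FBN2 were among the 8 of 36 tested matrix genes that rose in that step. BGN, LUM and SPARC were not called in it, and DCN was not tested. By day 3, PDGFRB, COL3A1, FBN1 and FBN2 were called higher, COL1A1 was called lower, and COL1A2 and FN1 were not called. PRRX1, TWIST1 and TWIST2 stayed at 0.738 or below on every day. COL1A1 was at 34.2, 7.74 and 19.8, so it was lower on day 5 than on day 0. The part of such cells in the matrix results was not tested. The 7 markers of primitive or parietal endoderm, a strong source of laminin in embryos, summed to 2.95, 1.09 and 0.786. AFP was at 2.15 on day 0, SOX17 was listed at 0 on day 5 and FOXA2 at 0 on day 3. SOX7 was at 0.491, 0.920 and 0.382, not called by day 3 and called lower between day 3 and day 5. The 5 endothelium markers summed to 35.1, 25.1 and 18.1, of which KDR, called lower by day 3, and TEK, called higher by day 3, made up nearly all, with PECAM1 and CDH5 at 0.124 or below. Trophoblast markers summed to 8.54, 2.23 and 2.55, with CGA listed at 0 on day 3. KRT7 was at 8.45, 1.79 and 0.336, called lower in each step, and GATA3 at 0.00952, 0.108 and 1.84, called higher between day 3 and day 5 (log2 4.09 ± 0.74, q 0.000596 in the authors' deposited table). Muscle markers summed to 2.19, 1.23 and 1.05, with MYOG listed at 0 on day 0.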

How the data were processed

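Poly-adenylated RNA was sequenced from 6 libraries, 2 each on day 0, day 3 and day 5. Per the submitters' processing notes, TopHat2 2.0.10, TopHat without a version and Cuffdiff 2.1.1 were used on hg19. Neither annotation nor strand setting is given in the sources used here. The deposited table gives, per the file headers, the authors' FPKM per gene and group, their test statistic (used as a score), and their p-value and q-value. The deposited q equals the Benjamini-Hochberg adjustment of p over 48572 tested rows of all 3 comparisons to within 5.25e-07. Nothing in the labels says that replicates came from separate cultures, so these values may measure technical spread alone.

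Genes with status OK count as tested, and those with q below 0.05 as called. Log2 ratios were computed from FPKM, and the ratio divided by the test statistic gave the implied standard error, with intervals at 1.96 errors. That error does not always match the deposited q (EMILIN1, MATN2). Medians used a pseudocount of 1. Starts are printed counted from 1. The genes and lists were chosen with earlier results of these data known. Genes called at least once with an FPKM of at least 5 in a group were described in full, and up to 4 called genes of each related list were named. The listed symbols HMCN2 and GTDC2 were absent. Upstream sequences came from RefSeq (GRCh38.p14). The Benjamini-Hochberg adjustment, with a cut at 0.05, was tested on simulated normal statistics. That simulation did not test the deposited p-values or the calls made from them. Python 3.11.15, pandas 2.3.3, NumPy 2.4.6, SciPy 1.17.1 and matplotlib 3.10.9 were used.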

Additional observations from a re-analysis of the deposited data

How the results depend on the processing

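The counts of matrix genes called kept within 1.5 times of their values at a q threshold of 0.01, with p adjusted within a comparison, with only genes that reach an FPKM of 1 on either day, and without genes that share a locus. Under the normal p of the test statistic the count of genes higher on day 3 than on day 0 was 7 in place of 12, the cause was not tested, and the other 8 counts kept within 1.5 times. The median log2 ratio between day 0 and day 3 was -0.021 when centred on the median of expressed genes, in place of 0.03. It was 0.049 with a pseudocount of 0.1 or 0.01 and 0.23 over genes with a mean FPKM of at least 1. The median over the whole course was 0.50 over those genes and 0.087 after rescaling, in place of 0.17. The other medians kept their sign and stayed within 1.5 times. Single genes without a call changed sign under centring (FN1 between day 0 and day 3 at -0.016, LAMA5 between day 3 and day 5 at 0.019) or under rescaling without the 6 genes that hold over 1% of the FPKM sum (THBS4 at -0.035 and MATN2 at -0.052 between day 3 and day 5, THBS1 at -0.021 over the whole course). No called ratio changed sign in either. Of the single tested ratios, 10 lost their call at a q threshold of 0.01 and 14 under the normal p. No paired analysis was possible because the table holds 1 value per group, and no replicate could be left out for the same reason. Depth is unknown, so calls on genes below an FPKM of 1 (LUM, LAMB3, FBLN5, SPARCL1, LAMA2, and SMOC2 between day 3 and day 5) rest on an unknown number of fragments.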

Other observations

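Enzymes that build the glycan chains of proteoglycans counted 4 higher and 6 lower of 31 tested by day 3. Between day 3 and day 5 they counted 2 higher and 0 lower of 29 tested. The called shares were 32.3% and 6.9%, against 20.6% and 12.6% of all tested genes. The difference between the steps was not tested. CHPF, a chondroitin polymerising factor, had FPKM values of 39.3, 14.4 and 10.6 on days 0, 3 and 5, and DSE, which makes dermatan sulphate, had 17.8, 6.09 and 8.12, both called lower on days 3 and 5 than on day 0. CHST3, a chondroitin sulphotransferase, was at 1.32, 2.67 and 5.64 and HS6ST2, a heparan sulphotransferase, at 2.08, 1.45 and 6.41, both called higher between day 3 and day 5.

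Genes that glycosylate dystroglycan, a laminin receptor, counted 1 higher and 2 lower of 12 tested by day 3. Between day 3 and day 5 they counted 0 higher and 1 lower of 12. Over the whole course they counted 3 higher and 2 lower of 12. In that order the called shares were 25%, 8.33% and 41.7%, against 20.6%, 12.6% and 27.0% of all tested genes. Nothing particular to this list is read from them. LARGE was at 21.9 on day 0, 11.3 on day 3 and 12.3 on day 5, its relative GYLTL1B at 65.3, 31.7 and 11.2, SGK196 at 4.08, 10.4 and 11.8, and B3GNT1 at 18.4, 29.1 and 34.2. On day 5 against day 0 the first pair were called lower and the second pair higher. LARGE and PCOLCE share their loci with other genes. Matrix assembly and crosslinking genes counted 0 higher and 3 lower of 18 tested by day 3, and 1 higher and 1 lower of 19 between day 3 and day 5. Their called shares, 16.7% and 10.5%, lay below those of all tested genes, and nothing particular to this list is read from them. PCOLCE, an enhancer of procollagen cleavage, was at 36.2, 8.63 and 6.19, PLOD2, a lysyl hydroxylase, at 16.3, 6.89 and 5.13, the protease FURIN at 9.60, 2.25 and 4.90 and TLL2 at 0.966, 1.75 and 0.465.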
